A study of Gallus gallus with 2 samples.

Results

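The eukaryotic translation initiation factors are the proteins that bring the initiator tRNA, the mRNA and the ribosomal subunits together at a start codon. Their mRNAs were examined in 2 RNA sequencing libraries of chick (Gallus gallus) limb bud. Members were the annotated genes whose symbol begins with EIF and a factor number from 1 to 6, without the EIF2AK kinases, which act on eIF2 and are not initiation factors themselves. The files hold 40 such genes among 17108 annotated rows, and 39 of them reached an FPKM (fragments per transcript length and sequencing depth, as the authors computed it) of at least 1 in at least 1 library, as did 10913 genes in all, referred to here as the kept genes. The member below this limit, EIF4E1B, an eIF4E relative known from oocytes, is listed at 0 in the vehicle library and had 0.0863 FPKM in the thalidomide library. The rule for members used no measured value other than this limit, but it was chosen with earlier results of these data known.

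Limb buds at Hamburger-Hamilton stage 22 (day 4 of incubation) had been dissected and cut up, and the pieces were incubated for 4 h at 37 °C with vehicle, 5% DMSO, or with thalidomide at 40 µg/ml. This drug, known for shortened limbs in exposed embryos, acts by redirecting the ubiquitin ligase that contains cereblon to other proteins. The labels name no strain and no number of embryos, nor whether DMSO was also present with the drug. Each treatment had 1 library, so no difference has a replicate check, no p-value can be given, and all values describe these libraries only. In bulk tissue, fewer cells of a type and less RNA per cell cannot be told apart.

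Initiation starts when eIF2, carrying GTP and the initiator tRNA, joins the small ribosomal subunit together with eIF1, eIF1A, eIF3 and eIF5. The eIF4 proteins bind the cap of the mRNA, unwind its leader and recruit the subunit, which scans to a start codon. There GTP is hydrolysed, the exchange factor eIF2B later reloads eIF2, and eIF5B joins the large subunit. Growing tissues such as the limb bud depend on this machinery, and cells limit it under stress by phosphorylating eIF2 or by blocking the cap-binding protein eIF4E.

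The initiation factors were abundant mRNAs. Their median was 87.1 FPKM in the vehicle library, against 9.33 for all kept genes, and together they held 0.988% of the summed FPKM with vehicle and 0.961% with thalidomide. The range ran from 3.34 FPKM for EIF4ENIF1, which carries eIF4E into the nucleus, to 397 FPKM for EIF4G2, a scaffold related to eIF4G that lacks the eIF4E-binding part. The order of the levels was close to the same in both libraries (Spearman's rho 0.993 across 39 genes, which share the same 2 libraries). Reading the deposited confidence limits as counting error, the median member rested on 4230 (vehicle) and 4572 (thalidomide) fragments, and the least covered member on 492 and 659. A ± after a log2 value is 1 error propagated from those limits. That error comes from counting and from assigning fragments to genes, and does not hold the spread between tissue samples.

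**Figure D1:**
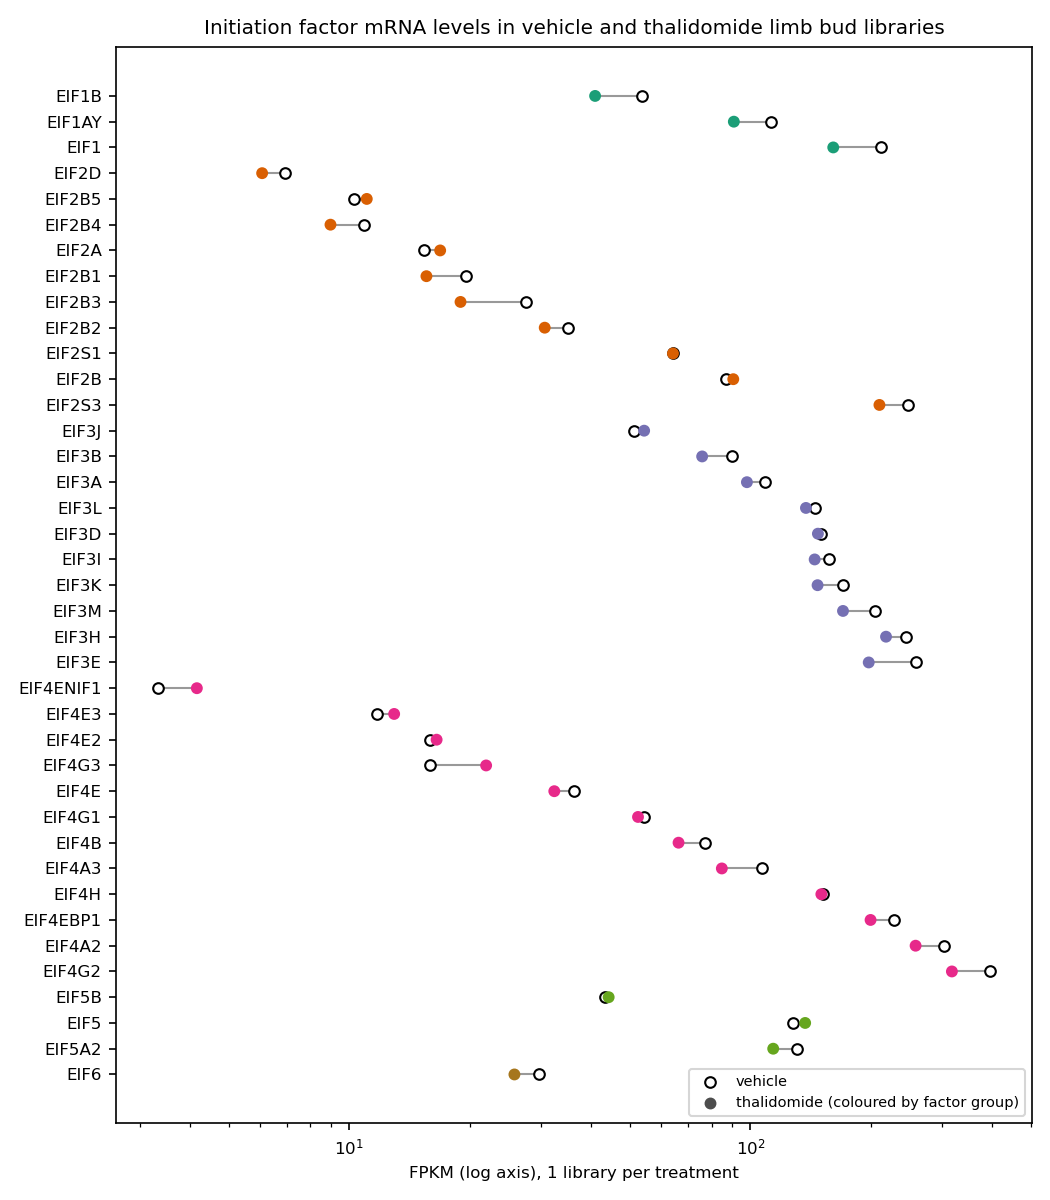
FPKM on a log axis of the 39 initiation factors in the vehicle library (open circles) and the thalidomide library (filled circles, coloured by factor group), 1 library per treatment. Levels run from 3.34 FPKM for EIF4ENIF1 to 397 for EIF4G2 with vehicle, and the distance between the circles of a gene is small beside the range between genes.

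As deposited, differences between the libraries were small, and 0 of 39 members reached 1.5-fold in either direction. Of the kept genes, 0.971% were at least 1.5-fold lower and 0.953% at least 1.5-fold higher. The log2 ratio of thalidomide over vehicle, taken after adding 1 to each FPKM, had a median of −0.17 over the members and −0.05 over the kept genes. This member median stayed at or below 0 on rescaling to a common FPKM total (−0.04) and on rescaling without mitochondrial and haemoglobin genes (−0.0007), but was above 0 (0.05) once each ratio was taken relative to kept genes of similar abundance. As deposited, 29 of 39 ratios were below 0, against 59% of kept genes, and 9 members were at least 1.2-fold lower, against 14.5% of kept genes. Only EIF4G3 was at least 1.2-fold higher, against 9.38% of kept genes. With 0.1 added to each FPKM in place of 1, EIF4ENIF1 was also at least 1.2-fold higher (log2 ratio 0.31). The member counts depended on the scaling, and the 14.5% and 9.38% are not their background on another scale. At a common FPKM total 1 member was at least 1.2-fold lower and 4 were higher. Without mitochondrial and haemoglobin genes these counts were 1 and 7, and relative to kept genes of similar abundance 1 and 2. EIF4G3, with a log2 ratio of 0.62 without mitochondrial and haemoglobin genes, also passed 1.5-fold on that scale. Deposited intervals stood apart between the libraries for 24 members that were lower and 3 that were higher, against 26.9% and 15.5% of kept genes. These counts became 10 lower and 15 higher at a common total, 10 and 17 without mitochondrial and haemoglobin genes, and 8 and 16 relative to kept genes of similar abundance. The shares of kept genes were counted only as deposited, so the counts on the other scales have no background here. On the 2 rescalings the median log2 ratio of kept genes itself moved up by 0.13 and 0.16.

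Abundance moved with these counts. Among kept genes with a mean above 100 FPKM the median log2 ratio was −0.24 and 90.9% of the ratios were below 0. The 17 members in that band had a median of −0.20, with 16 below 0. Between 30 and 100 FPKM, 1490 kept genes had a median of −0.15 and 11 members −0.16. Between 10 and 30 FPKM, 3215 kept genes had −0.05 and 8 members 0.07, and the 3 members under 10 FPKM had −0.17 against 0.003 for 5577 kept genes. Over all bands, 23 members lay above the median of their band and 16 below it. The share of genes with intervals that do not overlap also grew with abundance, to 90.5% of kept genes above 100 FPKM, where it was 15 of 17 members. Across the 39 members Spearman's rho of the log2 ratio with mean FPKM was −0.38, and across all kept genes it was −0.26, as a description of points that share both libraries. The part of abundance in the ratios was not tested.

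**Figure D2:**
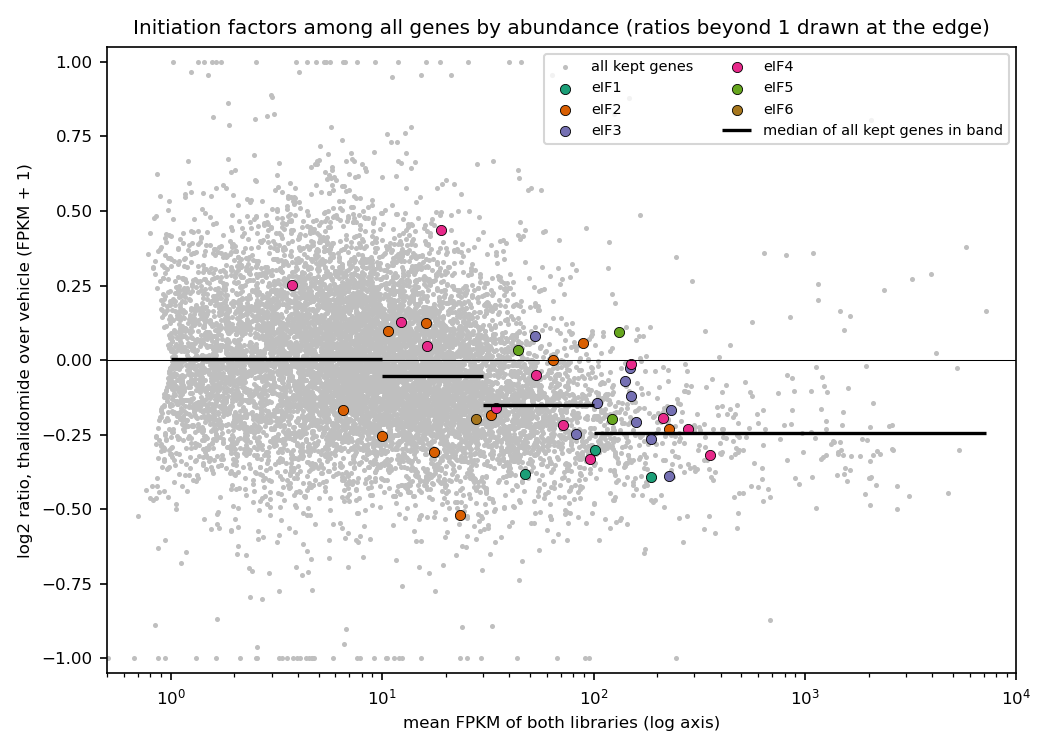
Log2 ratio of thalidomide over vehicle (vertical, FPKM + 1) against mean FPKM of both libraries (log axis), with all 10913 kept genes in grey, initiation factors coloured by group, and black lines for the median of kept genes in each abundance band. The band medians step down from 0.003 to −0.24 as abundance grows, and the initiation factors lie on both sides of them, 23 above and 16 below.

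The FPKM total over all rows was 426632 in the vehicle and 384280 in the thalidomide library, so a direction can turn on how the libraries are scaled. Rescaling both to the same total moved the median ratio of all kept genes up by 0.13, and rescaling on genes other than mitochondrial and haemoglobin genes moved it up by 0.16. Relative to the median of kept genes, the median of the members was −0.12 on all 3 of these scales. A factor applied to a whole library moves both medians almost alike, so this difference could hardly change. Relative to kept genes of similar abundance the median of the members was 0.05. Under 5 scalings (as deposited, centred on all kept genes, the 2 rescalings, and centred on kept genes of the same abundance band), 15 members were lower with thalidomide under every one, 10 were higher under every one, and 14 changed sign. Of 10768 kept genes with a mean of at least 1 FPKM, for which all 5 could be computed, 27.8% were lower under all 5, 40.7% were higher and 31.5% changed sign. These shares pool genes of all abundances and were not counted within abundance bands. Ratios fell as abundance grew, so the shares are not the background of abundant members. Centring on all kept genes and the 2 rescalings each shift every member's ratio up by similar amounts. A ratio above 0 as deposited therefore stays above 0 under them, and the 5 are not separate checks. A ratio between the FPKM of 2 members of the same library is not changed by a factor applied to the whole library, and such ratios are given below beside the levels. Centring on the abundance band does change the difference between members of different bands. Some pairs below set the lowest log2 ratio of a set against the highest. Their intervals lie away from 0 in part through that choice.

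**Figure D3:**
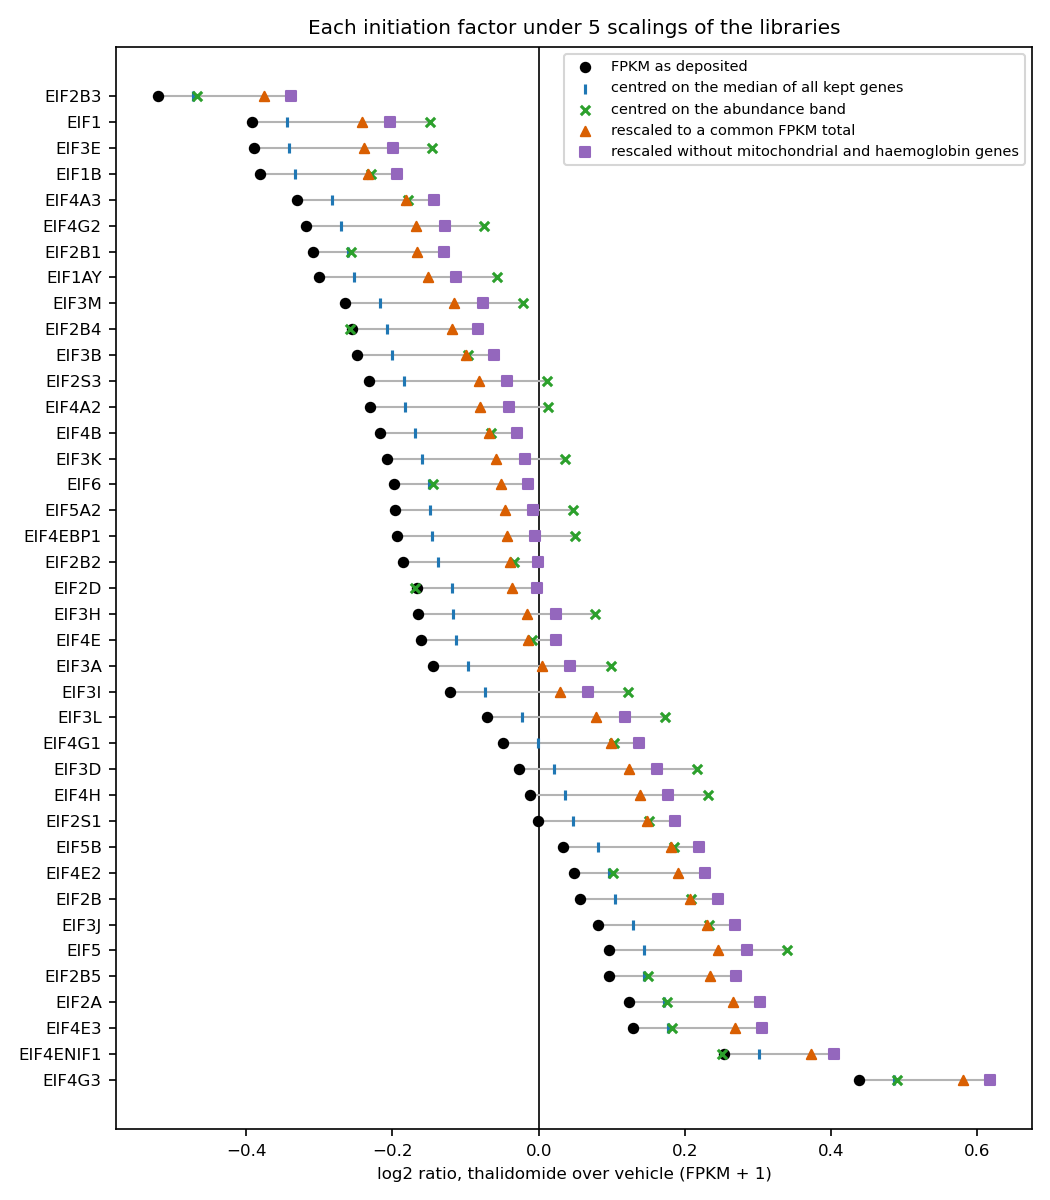
Log2 ratio of thalidomide over vehicle (FPKM + 1) for each of 39 initiation factors under 5 scalings of the libraries, one marker shape each, with a grey line from the lowest to the highest. The 11 genes from EIF2B3 to EIF3B at the top stay below 0 under all 5, the 10 from EIF5B to EIF4G3 at the bottom stay above 0, and 14 of those between them cross 0.

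The eIF1 and eIF1A proteins bind the small subunit, hold it open for scanning and keep it from settling on a wrong start codon. All 3 of their mRNAs were lower in the thalidomide library under all 5 scalings, as were 27.8% of kept genes of all abundances. EIF1 and EIF1AY had means above 100 FPKM, and EIF1B lay between 30 and 100 FPKM. As deposited, 90.9% and 80.3% of kept genes in these bands were below 0, so the 27.8% is not the background of these genes. EIF1 had 211 FPKM with vehicle and 161 with thalidomide (log2 ratio −0.39 ± 0.04). EIF1B, its close paralogue, had 53.7 and 41.0 FPKM (−0.38 ± 0.04). The genes were 1.31-fold and 1.30-fold lower, and the ratio of EIF1 to EIF1B was 3.94 with vehicle and 3.92 with thalidomide (log2 change −0.005, interval of 2 errors −0.13 to 0.11). EIF1AY, the files' symbol for the gene that RefSeq names EIF1AX and which encodes eIF1A, had 112 and 90.9 FPKM (−0.30 ± 0.04). The size depended on the scaling: relative to kept genes of the same abundance the ratios were −0.15, −0.23 and −0.06 for EIF1, EIF1B and EIF1AY. The annotated EIF1 locus in galGal4 (chromosome 27, 4505836 to 4644100) is 138265 bases long and overlaps 8 other rows, 6 of them keratin genes. KRT19, the most abundant of these, had 56.8 and 46.1 FPKM. The deposited limits of EIF1 lay 4.36% from its value with vehicle and those of EIF1B, at the lower level, 3.75%. Whether fragments of the overlapping rows entered the EIF1 value was not tested.

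eIF2 is a trimer that delivers the initiator tRNA, and its subunits did not move alike. EIF2S1, the alpha subunit whose phosphorylation slows initiation, had 64.2 FPKM with vehicle and 64.1 with thalidomide (−0.0007 ± 0.03). The beta subunit, which the files list as EIF2B and RefSeq names EIF2S2 with EIF2B as a synonym, had 87.1 and 90.6 FPKM (0.06 ± 0.03). EIF2S3, the GTP-binding gamma subunit, had 247 and 210 FPKM (−0.23 ± 0.01), below 0 except relative to kept genes of its abundance, where it had 0.01. The intervals of both libraries overlapped for EIF2S1 and EIF2B and did not for EIF2S3. Within a library, EIF2S3 stood 3.84 times above EIF2S1 with vehicle and 3.27 times with thalidomide (log2 change −0.23, interval of 2 errors −0.30 to −0.16). EIF2S3 and EIF2S1 lie in different abundance bands, and relative to kept genes of their bands they had 0.01 and 0.15. Beta over alpha was 1.36 and 1.41, with an interval that includes 0.

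eIF2B is the exchange factor, built from 5 different subunits, that swaps GDP for GTP on eIF2 and that phosphorylated eIF2 inhibits. Its mRNAs were far less abundant than those of eIF2, between 10.3 and 35.1 FPKM with vehicle. EIF2B3, the gamma subunit of the catalytic pair, had the lowest ratio of all members, with 27.6 FPKM with vehicle and 18.9 with thalidomide (−0.52 ± 0.05, 1.43-fold lower). This ratio exceeded only 1.6% of those of all kept genes, a rank that taking the lowest of 39 members favours. Under the 5 scalings it ran from −0.52 to −0.34. EIF2B5, the epsilon subunit that carries the exchange activity, had 10.3 and 11.1 FPKM (0.10 ± 0.06), and its intervals overlapped. The catalytic pair held the lowest and highest log2 ratios of the eIF2B genes. EIF2B3 over EIF2B5 was 2.69 with vehicle and 1.71 with thalidomide (log2 change −0.65, interval of 2 errors −0.81 to −0.49). The regulatory subunits EIF2B1 (alpha, 19.5 and 15.6 FPKM, −0.31 ± 0.07), EIF2B4 (delta, 10.9 and 8.98 FPKM, −0.26 ± 0.06) and EIF2B2 (beta, 35.1 and 30.7 FPKM, −0.19 ± 0.05) lay between these 2. All 3 were lower under all 5 scalings, as were 27.8% of kept genes. On rescaling without mitochondrial and haemoglobin genes EIF2B2 came to only −0.0007. The EIF2B3 locus (chromosome 8, 19722267 to 19816144) overlaps no other annotated row. The EIF2B1 locus overlaps DDX55, an RNA helicase gene, which had 7.33 and 8.65 FPKM.

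EIF2A and EIF2D, which can deliver tRNA to the ribosome without eIF2 at some start codons, were less abundant than the subunits of eIF2. EIF2A had 15.4 and 16.9 FPKM (0.12 ± 0.05) and EIF2D 6.93 and 6.07 FPKM (−0.17 ± 0.06). The intervals of the 2 libraries overlapped for both. Over the 10 genes of factor number 2 the median was −0.18 as deposited, −0.04 at a common total, −0.001 without mitochondrial and haemoglobin genes and −0.01 relative to kept genes of the same abundance. As deposited 7 were below 0, against 59% of kept genes, and 5 were lower under all 5 scalings, against 27.8%.

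eIF3 is the largest factor, a scaffold on the small subunit that binds the other factors and the mRNA. Of its subunits 10 were measured, between 51.3 FPKM (EIF3J) and 259 FPKM (EIF3E) with vehicle. The subunits c, f and g are not analysed here. Of the 10, 6 changed sign between scalings, against 31.5% of kept genes. As deposited 9 had ratios below 0, and 8 had intervals that did not overlap and were lower. Most of these genes had a mean above 100 FPKM, where 90.9% of kept genes were below 0 and 90.5% had intervals that did not overlap, so these counts are near the background of their abundance. The eIF3 median of −0.16 was −0.006 at a common total, 0.03 without mitochondrial and haemoglobin genes and 0.09 relative to kept genes of the same abundance. EIF3E, a core subunit, had 259 FPKM with vehicle and 197 with thalidomide (−0.39 ± 0.02), and EIF3M, another core subunit, had 205 and 170 FPKM (−0.27 ± 0.02). EIF3B, which holds the peripheral subunits, had 90.2 and 75.8 FPKM (−0.25 ± 0.02). These 3 were lower under all 5 scalings, as were 27.8% of kept genes of all abundances. That share was not counted within abundance bands, and it is not the background of genes as abundant as these 3.

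At the other end were EIF3D, a subunit that can bind the cap itself, with 150.1 and 147 FPKM (−0.03 ± 0.02), and EIF3J, a loosely bound subunit, with 51.3 and 54.3 FPKM (0.08 ± 0.03). EIF3J was the only eIF3 gene above 0 under all 5 scalings, against 40.7% of kept genes of all abundances, and its intervals overlapped. Between 30 and 100 FPKM, where EIF3J lies, 80.3% of kept genes were below 0 as deposited. EIF3E and EIF3J had the lowest and highest log2 ratios of the eIF3 genes. EIF3E over EIF3J was 5.04 with vehicle and 3.63 with thalidomide (log2 change −0.47, interval of 2 errors −0.55 to −0.40). The spread of levels, highest over lowest subunit, was 5.04 with vehicle and 4.01 with thalidomide, where EIF3H, at 218 FPKM, replaced EIF3E as the most abundant. The 6 measured subunits of the octameric core (EIF3A, EIF3E, EIF3H, EIF3K, EIF3L and EIF3M) had a median of −0.19 and the other 4 (EIF3B, EIF3D, EIF3I and EIF3J) −0.07, both as deposited. Median levels with vehicle were 187 FPKM for the core genes and 120 FPKM for the others. EIF3A, EIF3H, EIF3K and EIF3L of the core, and EIF3D and EIF3I of the others, changed sign between scalings. EIF3A, the largest subunit and organiser of the core, had 108.5 and 98.0 FPKM (−0.14 ± 0.01), which became 0.004 at a common total.

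**Figure D4:**
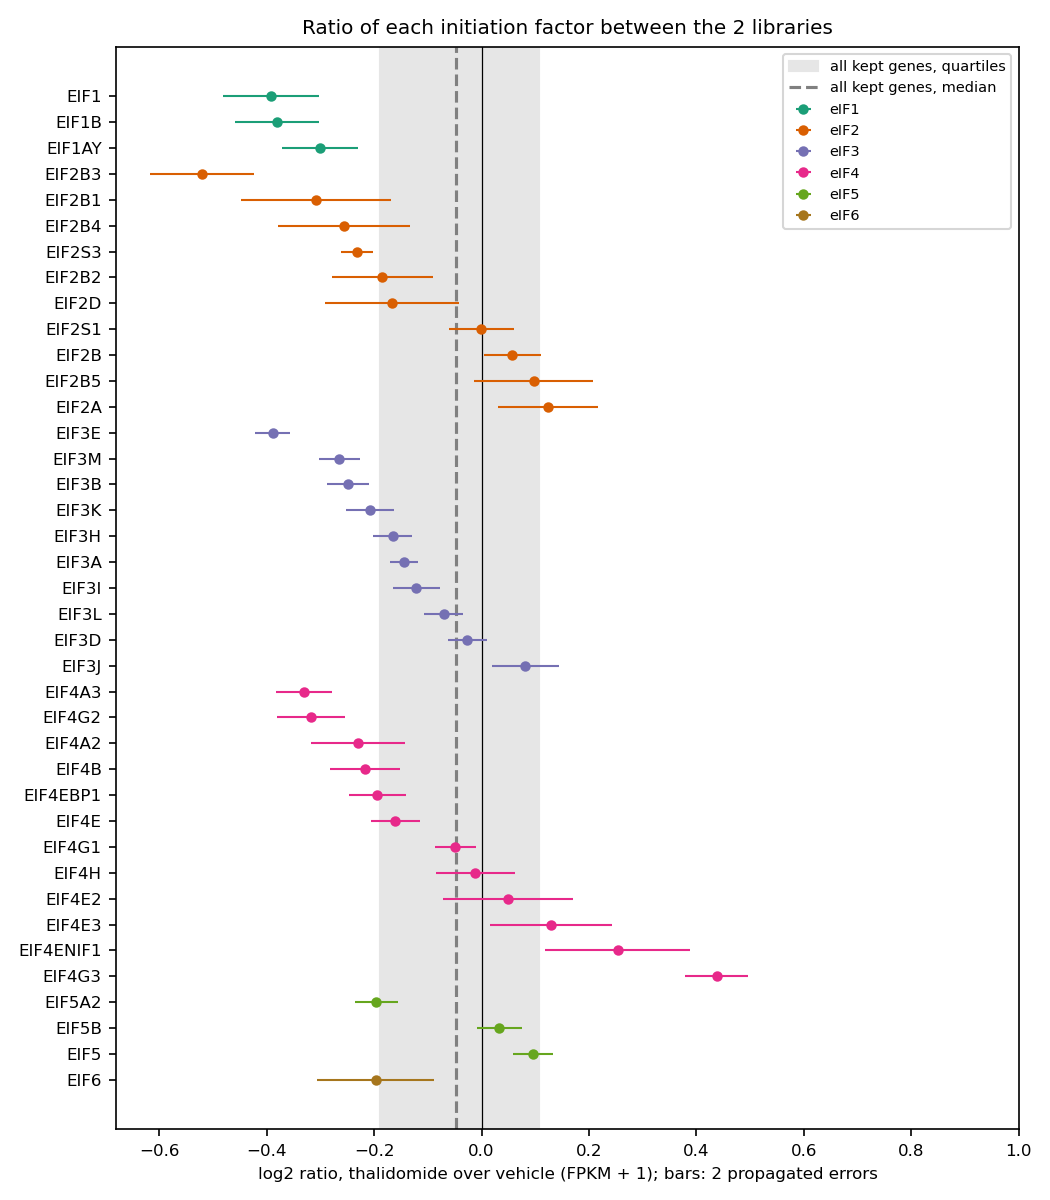
Log2 ratio of thalidomide over vehicle (FPKM + 1, as deposited) for 39 initiation factors by group; bars are 2 propagated errors, the dashed line and the grey band are the median and quartiles of all kept genes. EIF2B3 lies farthest left at −0.52 and EIF4G3 farthest right at 0.44, the eIF3 subunits spread from −0.39 to 0.08, and 14 of the genes change sign under another scaling.

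The eIF4 group joins the cap-binding protein eIF4E, the scaffold eIF4G and the helicase eIF4A. It spread most widely, from −0.33 for EIF4A3 to 0.44 for EIF4G3. Its median was −0.10 as deposited, 0.04 at a common total, 0.08 without mitochondrial and haemoglobin genes and 0.08 relative to kept genes of the same abundance. Of 12 genes, 3 were lower under all 5 scalings, 4 were higher and 5 changed sign. The shares of kept genes were 27.8%, 40.7% and 31.5%.

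The scaffolds differed most. EIF4G3, which encodes an eIF4G paralogue with the same binding sites as eIF4G1, had 15.9 FPKM with vehicle and 21.9 with thalidomide (0.44 ± 0.03, 37.7% higher in FPKM). This ratio was the highest of the 39 members, a choice that favours an extreme rank. It exceeded 97.4% of those of all kept genes and ran from 0.44 to 0.62 under the 5 scalings. EIF4G1, the main scaffold, had 54.3 and 52.5 FPKM (−0.05 ± 0.02), with overlapping intervals and a sign that changed with the scaling. EIF4G2, which promotes translation without eIF4E, had 397 and 318 FPKM (−0.32 ± 0.03) and was lower under all 5. EIF4G1 over EIF4G3 thus went from 3.41 to 2.39 (log2 change −0.51, interval of 2 errors −0.58 to −0.44), and EIF4G2 over EIF4G1 from 7.30 to 6.06 (−0.27, interval −0.34 to −0.19). The EIF4G3 locus (chromosome 21, 6635229 to 6706874) overlaps 1 other row of 169 bases, listed at 0 in both libraries.

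Among the cap-binding proteins, EIF4E had 36.4 and 32.4 FPKM (−0.16 ± 0.02), with a sign that changed between scalings. EIF4E2, which binds caps but represses translation in many settings, had 15.9 and 16.5 FPKM (0.05 ± 0.06), and EIF4E3, an atypical cap-binding paralogue, had 11.7 and 12.9 FPKM (0.13 ± 0.06). The intervals of the 2 libraries overlapped for EIF4E2 and EIF4E3. EIF4E over EIF4E3 was 3.10 with vehicle and 2.51 with thalidomide (log2 change −0.30, interval of 2 errors −0.44 to −0.17). EIF4EBP1, which encodes the inhibitor that keeps eIF4E from eIF4G until mTOR phosphorylates it, was a much more abundant mRNA, at 228 and 199 FPKM (−0.19 ± 0.03, above 0 only relative to kept genes of its abundance). It stood 6.27 times above EIF4E with vehicle and 6.14 times with thalidomide, a log2 change of −0.03 whose interval of 2 errors ran from −0.10 to 0.04. EIF4ENIF1 had 3.34 and 4.17 FPKM (0.25 ± 0.07), and was one of the 3 members with intervals that did not overlap and a higher value, with EIF4G3 and EIF5.

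The helicase genes were both lower as deposited. EIF4A3, whose protein sits on spliced mRNAs in the exon junction complex and is not part of the cap-binding complex, had 107 and 84.9 FPKM (−0.33 ± 0.03), lower under all 5 scalings. EIF4A2, the second most abundant member, had 303 and 258 FPKM (−0.23 ± 0.04), and relative to kept genes of its abundance it had 0.01. RefSeq lists EIF4A1 among the synonyms of this chicken gene. EIF4B, which stimulates the helicase, had 77.1 and 66.2 FPKM (−0.22 ± 0.03). EIF4H, a related stimulator, had 152 and 150.3 FPKM (−0.01 ± 0.04) and was above 0 under the other 4 scalings. EIF4B over EIF4H was 0.509 and 0.441 (log2 change −0.21, interval of 2 errors −0.31 to −0.11).

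The late factors EIF5 and EIF5B were higher under all 5 scalings, as were 40.7% of kept genes of all abundances. Under the 5 scalings EIF5 ran from 0.10 to 0.34 and EIF5B from 0.03 to 0.22. EIF5 had a mean above 100 FPKM, and EIF5B lay between 30 and 100 FPKM. As deposited, 90.9% and 80.3% of kept genes in these bands were below 0, so the 40.7% is not the background of these genes. EIF5, which makes eIF2 hydrolyse its GTP at the start codon, had 128 and 137 FPKM (0.10 ± 0.02), with intervals that did not overlap. EIF5B, the GTPase that joins the large subunit, had 43.3 and 44.3 FPKM (0.03 ± 0.02), with intervals that did. EIF1 and EIF5, whose proteins oppose each other in start codon choice, stood at a ratio of 1.65 with vehicle and 1.18 with thalidomide (log2 change −0.49, interval of 2 errors −0.59 to −0.39). EIF5A2, which despite its name mainly helps ribosomes elongate through difficult peptide bonds, had 131 and 114 FPKM (−0.20 ± 0.02, but 0.05 relative to kept genes of its abundance). EIF6, which keeps large subunits from joining too early, had 29.7 and 25.8 FPKM (−0.20 ± 0.05), and −0.01 on rescaling without mitochondrial and haemoglobin genes.

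The members lie on 19 numbered chromosomes and 2 unplaced scaffolds. EIF4E2, EIF2B5, EIF4G1 and EIF4A2 stand together on chromosome 9, between 15087461 and 15678579, in a window of 591 kb that holds 42 annotated rows. Their ratios of 0.05, 0.10, −0.05 and −0.23 do not share a direction as deposited, and the 20 other kept genes of the window had a median of −0.15, from −0.35 to 0.35. Inside the loci of 5 members (EIF3A, EIF4A2, EIF4G1, EIF4G2 and EIF5) the files list 10 small nucleolar RNA rows, 4 of them at 0 in both libraries. The largest values were those of SNORD97 in EIF4G2, with 89.6 and 159.8 FPKM, on a locus of 161 bases. Strand is not given in the sources used here, so fragments of overlapping genes may have been shared. Locus span and ratio had a Spearman's rho of 0.19 across the members and 0.15 across kept genes.

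Regulators and partners were set beside the members, from lists chosen with earlier results of these data known. Their log2 ratios are given only as deposited. The 2 rescalings moved the median of all kept genes up by 0.13 and 0.16. Of the eIF2 kinases, EIF2AK3 (PERK, the sensor of unfolded protein in the endoplasmic reticulum) had 10.7 and 13.8 FPKM (0.34 ± 0.05), whereas EIF2AK1 (the haem-regulated kinase) had 17.1 and 13.8 FPKM (−0.30 ± 0.05). These were the kinases with the highest and lowest log2 ratios. EIF2AK3 over EIF2AK1 went from 0.624 to 1.01 (log2 change 0.69, interval of 2 errors 0.54 to 0.84). EIF2AK4 (GCN2, the sensor of uncharged tRNA) had 6.50 and 5.54 FPKM (−0.20 ± 0.04), and EIF2AK2 (PKR, the sensor of double-stranded RNA) had 3.08 and 3.03 FPKM (−0.02 ± 0.07). PPP1R15B, the constitutive subunit of the phosphatase that acts on eIF2, had 19.5 and 20.5 FPKM (0.07 ± 0.04). Phosphorylation was not measured.

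As deposited, of 15 kept genes of mTOR signalling and other control of cap binding, 6 were below 0 and 9 above (median 0.02), against 59% and 41% of kept genes, and 1 was at least 1.2-fold higher, against 9.38%. This was TSC1, which with TSC2 restrains mTOR, with 4.93 and 6.22 FPKM (0.28 ± 0.05). MTOR itself had 6.43 and 6.70 FPKM (0.05 ± 0.04), and RPS6KB2, a ribosomal protein S6 kinase, was lowest at −0.21 ± 0.07. The 6 poly(A)-binding and recycling partners found of 7 listed had a deposited median of −0.25. Of these, 5 were below 0 and 3 at least 1.2-fold lower, against 59% and 14.5% of kept genes. The lowest was DDX3X, a helicase that helps structured leaders, with 113 and 88.3 FPKM (−0.35 ± 0.01), and the highest DHX29, another scanning helicase (0.09 ± 0.06). PABPC1, the poly(A)-binding protein that contacts eIF4G, had 536 and 432 FPKM (−0.31 ± 0.01). Both DDX3X and PABPC1 had means above 100 FPKM. In that band 90.9% of kept genes were below 0 and 43.6% were at least 1.2-fold lower. Of 9 listed elongation genes, only 5 were found by symbol, with a deposited median of −0.17. They ran from −0.21 for EEF1D, a subunit of the exchange factor of elongation, to 0.10 for EEF2K, the kinase that inhibits eEF2. The 2 termination genes found of 3 listed, ETF1 (−0.02) and GSPT1 (0.04), had overlapping intervals. So did DOHH (−0.16), the enzyme that completes hypusine on eIF5A. Cytosolic ribosomal protein genes, 56 by symbol, had a median of −0.31 as deposited, at a median of 1473 FPKM with vehicle. Kept genes with a mean above 100 FPKM had a median of −0.24. These medians share the libraries and their scaling with those of the initiation factors, and no test between them is possible.

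**Figure D5:**
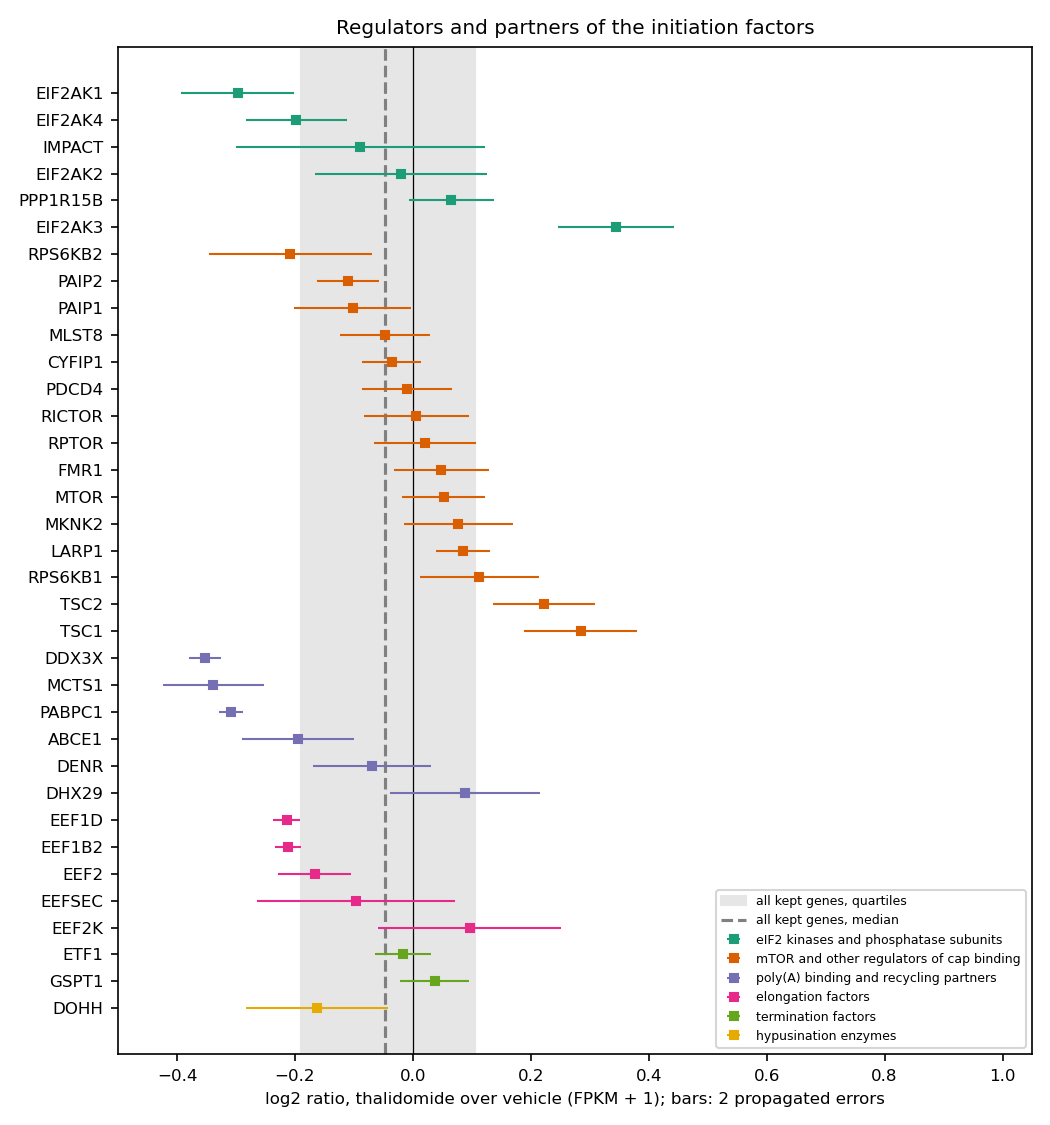
Log2 ratio of thalidomide over vehicle (FPKM + 1, as deposited) for kept regulators and partners of the initiation factors, coloured by list; bars are 2 propagated errors, with the median and quartiles of all kept genes as the dashed line and grey band. EIF2AK3 (0.34) and TSC1 (0.28) lie farthest right, and DDX3X (−0.35), MCTS1 (−0.34), PABPC1 (−0.31) and EIF2AK1 (−0.30) farthest left.

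As for the tissue, limb mesenchyme markers were present in both libraries, 7 of 8 kept, with a summed level of 939 FPKM with vehicle and 786 with thalidomide, and HOXA13 is listed at 0 in both. Red blood cell markers (6 of 10 listed genes in the files, HBZ at 0 in both) summed to 267 and 361 FPKM. Summed levels with vehicle and thalidomide were 70.8 and 59.9 FPKM for 6 ectoderm markers, 25.9 and 22.9 for 3 muscle precursor markers, 33.9 and 28.2 for 5 endothelial markers, 83.3 and 68.9 for 4 neural markers, and 2.64 and 2.34 for 3 leukocyte markers. No marker of these last 5 lists that the files hold is at 0. Within each list except that of red blood cells, the kept markers had deposited log2 ratios on both sides of 0. The FPKM total over all rows was also lower with thalidomide, at 384280 against 426632 with vehicle. The part of the cell mixture in the ratios was not tested.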

How the data were processed

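Per the labels, total RNA of 1 vehicle and 1 thalidomide sample was sequenced. Per the submitters' processing notes the assembly was galGal4 and the tools were Cufflinks 2.2.1, Cuffdiff, STAR 2.4.2a and bcl2fastq, with no roles stated. Strand, read length and annotation release are not stated in the labels. The deposited values are FPKM per gene with lower and upper confidence limits, per the file headers. They are not counts, and no count test was run.

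Files were joined by gene identifier, rows of one symbol were summed (130 symbols; bare numbers were not taken as symbols), and genes reaching 1 FPKM in either library were kept. Every member is a single row. Log2 ratios used a pseudocount of 1, and fold changes are on that scale, which understates low genes. Ratios between 2 members used FPKM with no pseudocount. The upper limit was read as lying 2 SD above the FPKM, and fragment numbers were inferred from it (23344077 with vehicle and 23263242 with thalidomide in all); uncertain assignment makes these too low. Starts were converted to count from 1. RefSeq (GRCg7b) names matched 37 members by symbol and 2 by synonym; no coordinates were taken from it.

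Members, lists and thresholds (1.2-fold and 1.5-fold) were chosen with earlier results of these data known. All members may be named; other genes named are the extremes of the fixed lists, the eIF2 kinases, PPP1R15B, MTOR, PABPC1, TSC2, MCTS1, and genes overlapping a member. MTOR, PABPC1 and MCTS1 were added after their values were seen. The calculation was also run on simulated libraries with known folds, drawn with counting error only. These held no difference in scaling and no spread between tissue samples, so they check the arithmetic only. Python 3.11.15, pandas 2.3.3 and scipy 1.17.1 were used.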

Additional observations from a re-analysis of the deposited data

How the results depend on the processing

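With 1 library per treatment, no alternative gives a replicate check. No paired analysis was possible because each treatment has 1 library. A filter of 5 FPKM, no filter, unsummed rows and leaving out loci under 300 bases left the counts within 1.5 times and the medians within 2 errors, and a pseudocount of 0.1 did so except that 2 members were then at least 1.2-fold higher. Centring on all kept genes gave 2 members at least 1.2-fold higher, 8 higher with intervals apart, and medians of −0.11 for eIF3 and 0.0811 for eIF5. At a common FPKM total the median of the members was −0.0359, with 1 member at least 1.2-fold lower and 4 higher, and with intervals apart 10 lower and 15 higher; medians were −0.233 (eIF1), −0.0373 (eIF2), −0.00556 (eIF3), 0.0424 (eIF4) and 0.181 (eIF5), and EIF6 had −0.0519. Rescaled without mitochondrial and haemoglobin genes the median was −0.000683, with 1 lower and 7 higher at 1.2-fold, 10 lower and 17 higher with intervals apart, and −0.194 (eIF1), −0.00128 (eIF2), 0.0334 (eIF3), 0.0807 (eIF4), 0.219 (eIF5) and −0.0141 (EIF6). These shifts follow from the scaling itself. For rescaled or centred values the shares of all kept genes at 1.2-fold and with intervals apart were not counted. The member counts under those settings therefore have no background to be read against. Alternatives added after seeing the data were the following. Centred on the abundance band, the median was 0.0475, with 16 members below 0, 1 lower and 2 higher at 1.2-fold, 8 lower and 16 higher with intervals apart, and −0.149 (eIF1), −0.0112 (eIF2), 0.0880 (eIF3), 0.0752 (eIF4) and 0.185 (eIF5). Without the 14 members that overlap another row, 25 remained, of which 18 were below 0, 5 were lower and 0 higher at 1.2-fold, and 15 lower and 1 higher had intervals apart; the eIF2 median was −0.000653 and that of eIF5 −0.0813. Fewer genes lower these counts by construction.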
